A study of Mus musculus with 9 samples.

Results

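The Wnt pathway at the cell surface was examined in mouse embryonic fibroblasts (MEFs) through 43 genes, of 47937 in the count table, matched from their Ensembl identifiers to the symbols of a list. The list holds 12 Wnt ligands, 10 Frizzled receptors, 5 co-receptors, 9 secreted inhibitors, 2 R-spondins and 5 feedback or transcription genes. RNA-seq was performed on 9 libraries, 3 for each of 3 genotypes. In WT cells no H3K9 methyltransferase (KMT), the enzyme class that places methyl groups on lysine 9 of histone H3, was removed. S1S2 cells are knockouts of Suv39h1 and Suv39h2. G9Gl cells are knockouts of G9a (gene symbol Ehmt2) and Glp (Ehmt1). All cells descend from a line in which Eset1, a further H3K9 KMT gene, can be deleted by a tamoxifen-inducible Cre. Per the study's methods, WT is a sorted clone of that line and each mutant is 1 clone obtained with CRISPR/Cas9. The methods add that a Cre construct with puromycin resistance was put in again after gene disruption, with puromycin kept in the culture. Whether this held for WT and for these cultures is not stated. Genotype and clone therefore cannot be told apart, nor can any such step that only the mutants received. The p-values measure only the spread among 3 cultures of 1 clone each. Age and sex of the cells are not given in the sources used here, nor whether these cultures met tamoxifen.

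Wnt proteins are secreted, lipid-modified signals that bind Frizzled receptors. With the co-receptors Lrp5 or Lrp6 they stabilise beta-catenin, which switches on genes together with the TCF/LEF factors, whereas Ror and Ryk co-receptors relay signals that do not need beta-catenin. Sfrp, Dkk and Wif proteins are secreted antagonists, R-spondins keep Frizzled receptors at the membrane, and Axin2 and Nkd1 are induced by the signal and dampen it. In fibroblasts of the embryo these signals pattern skin, bone and limb mesenchyme.

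The libraries held between 21319778 and 32157623 counts, S1S2 the fewest, so that 3 counts corresponded to between 0.0923 and 0.141 CPM (a gene's counts scaled to the library total, the unit of all levels below). Across genes, which are not replicates, libraries of a genotype correlated at 0.993 or more in log2 CPM, and libraries of different genotypes at 0.966 or less. Suv39h1 RNA fell in S1S2 cells (log2 fold change -1.36) and Ehmt2 and Ehmt1 RNA fell in G9Gl cells (-1.20 and -1.04). Suv39h2 RNA was higher, not lower, in the cells labelled S1S2 (0.70). These clones were chosen for absence of the proteins, not the RNA. Of 10 fibroblast markers 9 were tested, and Lum was under the floor of 3 counts in every library, with at most 2 counts. The summed level of the list was 9850 to 11344 CPM in WT, 7376 to 7439 CPM in S1S2 and 7848 to 8692 CPM in G9Gl cells. In S1S2 cells 6 of the markers were called lower, with Col3a1 at -3.01, Postn at -2.82 and Col1a2 at -2.60 on the log2 scale. The other tested markers were not called there, with Vim higher at 0.72, Fn1 at 0.09 and Col1a1 at -0.36. In G9Gl cells Thy1 and Postn rose and Pdgfra and Pdgfrb fell. Markers of epithelium summed to at most 5.60 CPM and those of endothelium to at most 2.35 CPM. Both sums were higher in the mutants than in WT cells (at most 0.548 and 0.193 CPM), with Krt8 and Kdr leading in S1S2 cells and Krt14 and Cdh5 in G9Gl cells. Of the blood and pluripotency markers, Adgre1, Hbb-bs, Pou5f1 and Zfp42 were at 0 in all libraries, Ptprc had a mean of at most 0.0909 CPM, Cd68 was at 4.36, 3.53 and 4.40 CPM in WT, S1S2 and G9Gl, and Nanog at 0.405, 0.158 and 0.539 CPM. The 4 neural markers summed to 25.1 to 27.1 CPM in WT, 38.1 to 42.4 CPM in S1S2 and 18.6 to 26.5 CPM in G9Gl. Tubb3, which fibroblasts also express, made most of this sum (log2 fold change 0.65 in S1S2), while Map2 fell in S1S2 (-1.73) and Sox10 and Gfap had means of at most 0.217 CPM. The part of these marker shifts in the Wnt values below was not tested. In bulk RNA, fewer cells of a type and less RNA per cell cannot be told apart.

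To show the DNA just before some of the genes that changed most, the bases upstream of the RefSeq start are given for 5 members. For Fzd1 the GENCODE start lies 181 bases further into the gene. The sequences were read from the RefSeq promoter table of GRCm38.p6, which holds 29 of the 43 members, and were trimmed to end before the first annotated transcript start. Members with no entry, such as Dkk3, or with several, such as Wnt5b, were left out. The 5 shown changed most against WT among called members with a single entry and at least 1 CPM on average in some genotype. They are Sfrp2 (chr3:83766071-83766320, plus strand), Wnt4 (chr4:137277385-137277488, plus strand), Dkk2 (chr3:132085042-132085291, plus strand), Fzd1 (chr5:4758217-4758466, minus strand) and Fzd4 (chr7:89404116-89404354, plus strand). Each runs 5′ to 3′ along the gene's strand, and CpG dinucleotides, the sites of DNA methylation in mammals, are in capitals.
Sfrp2: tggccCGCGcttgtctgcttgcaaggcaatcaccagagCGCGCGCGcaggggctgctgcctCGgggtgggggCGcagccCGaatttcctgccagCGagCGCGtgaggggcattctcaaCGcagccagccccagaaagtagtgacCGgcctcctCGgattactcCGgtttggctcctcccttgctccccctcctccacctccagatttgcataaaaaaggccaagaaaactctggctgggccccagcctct
Wnt4: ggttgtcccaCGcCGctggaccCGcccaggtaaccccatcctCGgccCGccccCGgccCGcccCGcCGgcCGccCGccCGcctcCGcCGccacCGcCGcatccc
Dkk2: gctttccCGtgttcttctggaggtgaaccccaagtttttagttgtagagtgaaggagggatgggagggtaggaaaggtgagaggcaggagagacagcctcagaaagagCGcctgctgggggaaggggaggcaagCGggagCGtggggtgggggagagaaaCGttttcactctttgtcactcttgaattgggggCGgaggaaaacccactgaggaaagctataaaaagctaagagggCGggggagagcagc
Fzd1: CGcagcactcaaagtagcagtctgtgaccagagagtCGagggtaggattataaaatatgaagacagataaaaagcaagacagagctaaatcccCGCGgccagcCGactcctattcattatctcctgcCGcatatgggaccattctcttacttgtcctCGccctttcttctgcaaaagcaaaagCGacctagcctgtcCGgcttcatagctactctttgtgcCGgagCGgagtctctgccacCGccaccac
Fzd4: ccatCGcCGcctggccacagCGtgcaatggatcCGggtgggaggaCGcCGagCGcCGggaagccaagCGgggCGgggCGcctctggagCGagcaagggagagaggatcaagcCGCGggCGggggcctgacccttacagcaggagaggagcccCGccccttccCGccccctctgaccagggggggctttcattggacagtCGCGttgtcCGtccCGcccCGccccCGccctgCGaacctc

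The windows differ in CpG content. Dkk2 holds 7 CpG and Fzd1 12 in 250 bases, Sfrp2 holds 16 in 250 bases, Wnt4 16 in 104 bases and Fzd4 24 in 239 bases. Over the whole RefSeq windows of 300 bases, the median was 23.5 CpG in 36 promoters of members and 7 in all 32851 promoters. Core words of TCF/LEF sites were searched on both strands. The words were CTTTGAA, its variant CTTTGAT, the further word CTTTGTA and its variant CTTTGTT. At least 1 of them lay in 5 of the 36 promoters of members (13.9%) and in 16.9% of all promoters. None of the 5 sequences shown holds 1 of these words. These counts describe letters only, and neither methylation nor binding was measured here.

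A gene was called where the quasi-likelihood F test of edgeR gave an adjusted p of 0.01 or less, with adjustment over all 15540 genes tested, and the change was 2-fold or more. Of the 43 members, 31 passed the filter on low counts, and 12 did not, among them 6 with 0 counts in all libraries. No untested member reached more than 11 counts in a library. Of the 31, 6 were under the filter level of 0.352 CPM in some library. Wnt4, Sfrp2, Fzd9 and Rspo2 reached it in 6 libraries and Nkd1 in 3, none of them of G9Gl. Ror1 reached it only in the 3 G9Gl libraries, so it entered the test through the genotype in which it is high, and its call there is no support for a rise. In S1S2 against WT cells, 11 of the 31 tested members (35.5%) were called, where the share over all tested genes was 9%. Of the 31, 5 rose, with 4.66% of all genes called higher, and 6 fell, with 4.34% called lower. In G9Gl against WT cells, 9 of the 31 (29%) were called, where the share of all genes was 10.2%. Here 3 of the 31 rose, beside 6.77% of all genes, and 6 fell, beside 3.4%. Between the mutants, 13 of the 31 (41.9%) were called, beside 13.1% of all genes. Of these members, 6 were higher in G9Gl, beside 7.97% of all genes, and 7 were lower, beside 5.08%. At an adjusted p of at most 0.01 with no fold limit, 25, 18 and 23 of the 31 passed in the 3 contrasts. The shares of all genes were 37.9%, 35% and 42.6%. Whether the members differ as a set from all genes was not tested. Both comparisons with WT use the same 3 WT libraries. The median log2 fold change of the tested members was 0.27, -0.06 and -0.06 in the 3 contrasts, and that of all tested genes was between -0.01 and 0.00. The median size of the change, without its sign, was 0.82, 0.37 and 0.96 for the members, against 0.25, 0.22 and 0.26 for all genes. In all, 18 members were called in at least 1 contrast and 13 tested members in none.

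**Figure D1:**
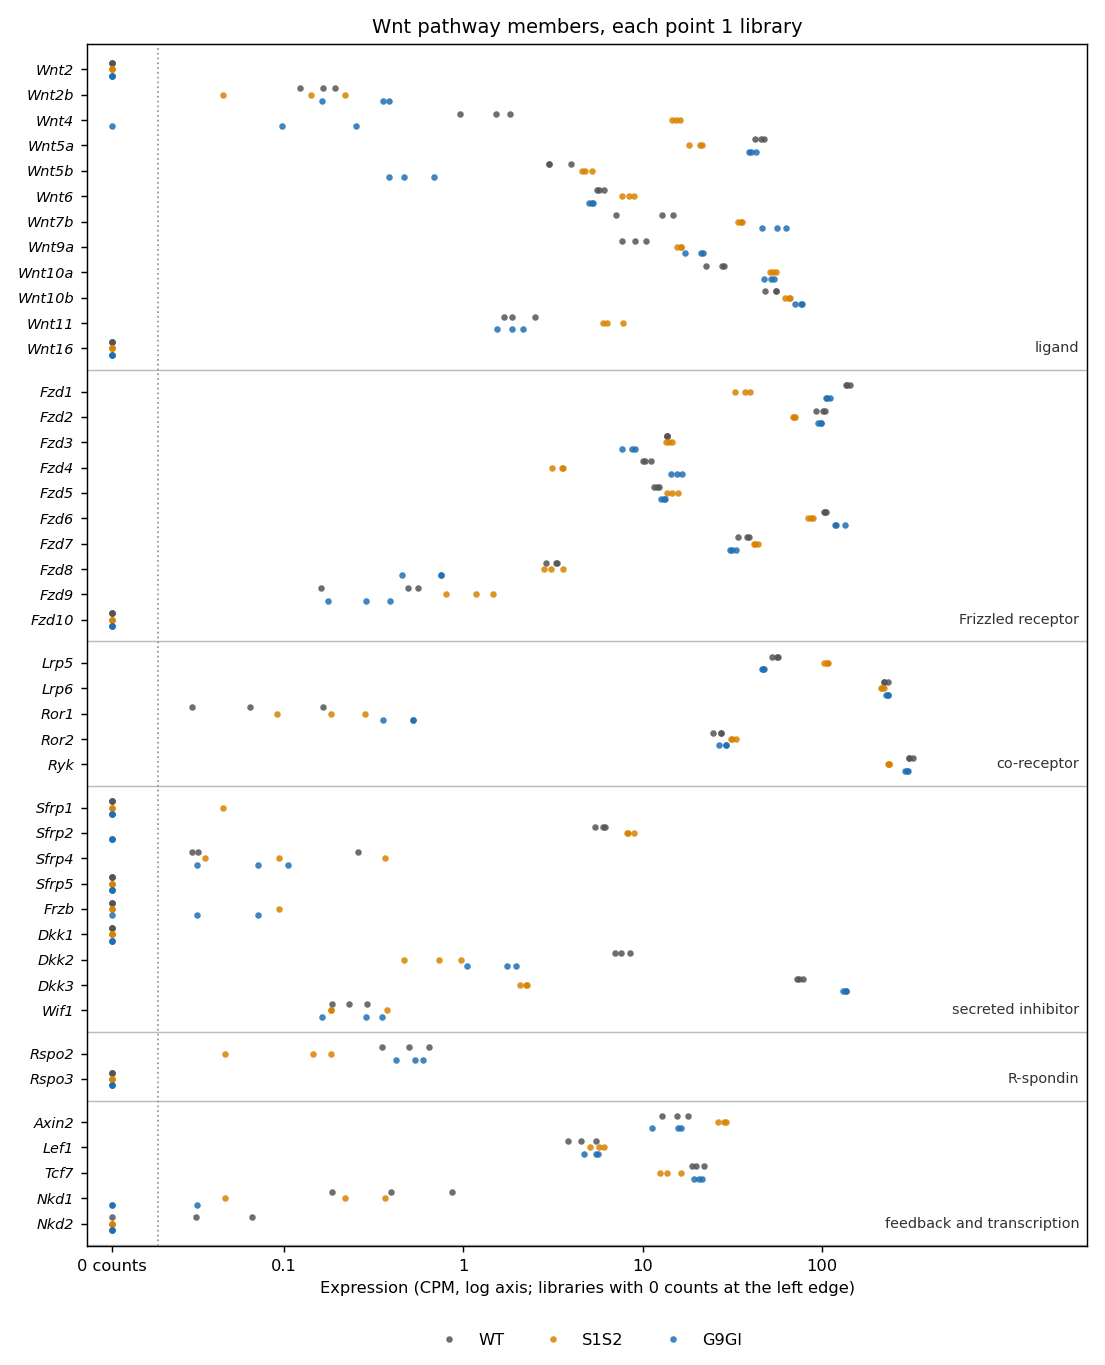
Expression in CPM (log axis) of the 43 members by role, 1 point for each of the 9 libraries, with libraries at 0 counts at the left edge. The G9Gl libraries of Sfrp2 sit at the left edge, and the S1S2 libraries of Dkk3 lie near 2 CPM against about 75 CPM in WT.

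Among the ligands, Wnt4 rose in S1S2 and fell in G9Gl cells, Wnt11 rose and Wnt5a fell in S1S2 cells, Wnt5b fell in G9Gl cells, and Wnt7b rose in both mutants. Wnt4, a ligand needed for kidney and female reproductive tract development, was at 0.954, 1.82 and 1.51 CPM in the WT libraries, at 15.3, 16.1 and 14.6 CPM in S1S2 and at 0, 0.251 and 0.0979 CPM in G9Gl. The 3 genotypes did not overlap, with S1S2 high and G9Gl close to the floor, where the counts were 0, 7 and 3. The log2 fold change was 3.43 (SE 0.266, adjusted p = 1.78e-10) in S1S2 and -3.58 (SE 0.682, adjusted p = 3.72e-06) in G9Gl against WT. Directly between the mutants it was -7.01 (SE 0.631, adjusted p = 2.29e-12). Both G9Gl values rest on few counts. Leaving out 1 library gave values up to -3.02 against WT and -6.45 against S1S2. Without G9Gl replicate 2 the G9Gl counts, 0 and 3, do not exceed the floor. The fitted values there, -4.69 and -8.12, are therefore no measure of the size of the change.

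Wnt11, which acts mostly without beta-catenin, stood at 1.88, 2.51 and 1.68 CPM in WT, 6.02, 6.31 and 7.76 CPM in S1S2 and 1.86, 2.16 and 1.53 CPM in G9Gl. All S1S2 libraries lay above the others, and WT and G9Gl overlapped. Its log2 fold change was 1.73 (SE 0.202, adjusted p = 2.92e-07) in S1S2 and -1.86 (SE 0.176, adjusted p = 1.03e-07) in G9Gl against S1S2. The pseudogene Gm8398 on the opposite strand shares 364 bases of exon with Wnt11, and reads of the pair may not be separable. Overlaps of this kind also exist for Wnt5a (358 bases with Gm2670), Wnt7b (324 with AU022754), Lef1 (1208 with Gm43352), Axin2 (209 with Gm11670) and Fzd6 (152 with Gm26704).

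Wnt5a, the main ligand of Ror2 in mesenchyme, measured 45.5, 47.2 and 42.1 CPM in WT and 39.9, 43 and 39 CPM in G9Gl, but 21.4, 18.2 and 20.9 CPM in S1S2. The S1S2 libraries were all below the rest, which overlapped among themselves. In S1S2 it changed by -1.16 on the log2 scale (SE 0.0869, adjusted p = 4.17e-10), a call lost in glmTreat, which tests for a change beyond 2-fold (adjusted p = 0.0724). Against S1S2, Wnt5a was called higher in G9Gl (1.02, SE 0.084, adjusted p = 1.51e-09), and that call fell under the fold limit without S1S2 replicate 2 (0.95) or G9Gl replicate 2 (0.97).

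Wnt5b, its closest relative, showed another pattern. It was at 3.01, 3.01 and 3.96 CPM in WT, 4.78, 4.56 and 5.22 CPM in S1S2 and 0.386, 0.467 and 0.685 CPM in G9Gl. The G9Gl libraries were lowest with no overlap. On the log2 scale Wnt5b changed by -2.68 (SE 0.25, adjusted p = 2.40e-08) against WT and -3.22 (SE 0.221, adjusted p = 1.09e-09) against S1S2, while the value in S1S2 against WT, 0.54 (adjusted p = 9.75e-03), stayed under the fold limit.

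Wnt7b, a ligand of epithelia that signals through beta-catenin, was at 12.8, 14.7 and 7.09 CPM in WT, 35.5, 35 and 33.9 CPM in S1S2 and 46, 62.5 and 56 CPM in G9Gl. The genotypes did not overlap, although WT replicate 3 was lower than the other WT libraries. Wnt7b rose by 1.59 (SE 0.321, adjusted p = 4.11e-07) in S1S2 and by 2.25 (SE 0.346, adjusted p = 2.62e-09) in G9Gl on the log2 scale. The difference between the mutants, 0.66 (SE 0.13, adjusted p = 1.01e-03), was not called.

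Wnt9a and Wnt10a were higher in both mutants than in WT, each close to the fold limit. Wnt9a was at 9.04, 10.4 and 7.70 CPM in WT, 16.2, 16.3 and 15.4 CPM in S1S2 and 17.2, 21.6 and 21.1 CPM in G9Gl, with WT below all others. It was called in G9Gl (1.14, SE 0.162, adjusted p = 7.80e-08) and not in S1S2 (0.82, SE 0.127), and the mutants were not called apart (0.32). In glmTreat the G9Gl call was lost (adjusted p = 0.34). Wnt10a, known for roles in teeth, hair and skin, measured 28.4, 27.7 and 22.4 CPM in WT, 55.1, 53.1 and 51.2 CPM in S1S2 and 47.4, 51.6 and 53.5 CPM in G9Gl. WT was again below all other libraries and the mutants overlapped. Wnt10a was called in S1S2 (1.02, SE 0.114, adjusted p = 7.13e-09) and not in G9Gl (0.96, SE 0.121, adjusted p = 1.17e-08), with -0.06 between the mutants. The S1S2 call was lost without WT replicate 3 (0.92), without S1S2 replicate 1 and without the TMM factor (both 1.00 after rounding). The G9Gl value passed the limit without WT replicate 1 (1.02), without G9Gl replicate 1 (1.01) and with the median of its chromosome removed (1.22). Over the genes of chromosome 1 the median change in G9Gl cells was -0.26.

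Wnt10b, the most abundant ligand per length of exon in WT cells, was called in no contrast. It stood at 52.9 ± 4.05 CPM in WT, 64.5 ± 2.17 in S1S2 and 74.5 ± 3.86 in G9Gl (SD, n = 3), with log2 fold changes of 0.29, 0.49 and 0.21. Wnt6, the neighbour of Wnt10a on chromosome 1, was also not called, at 5.79 ± 0.275, 8.33 ± 0.623 and 5.16 ± 0.157 CPM. Wnt2 and Wnt16 had 0 counts in every library, which allows up to the floor of 0.0923 to 0.141 CPM. Wnt2b was under the filter, with a mean of at most 0.303 CPM.

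**Figure D2:**
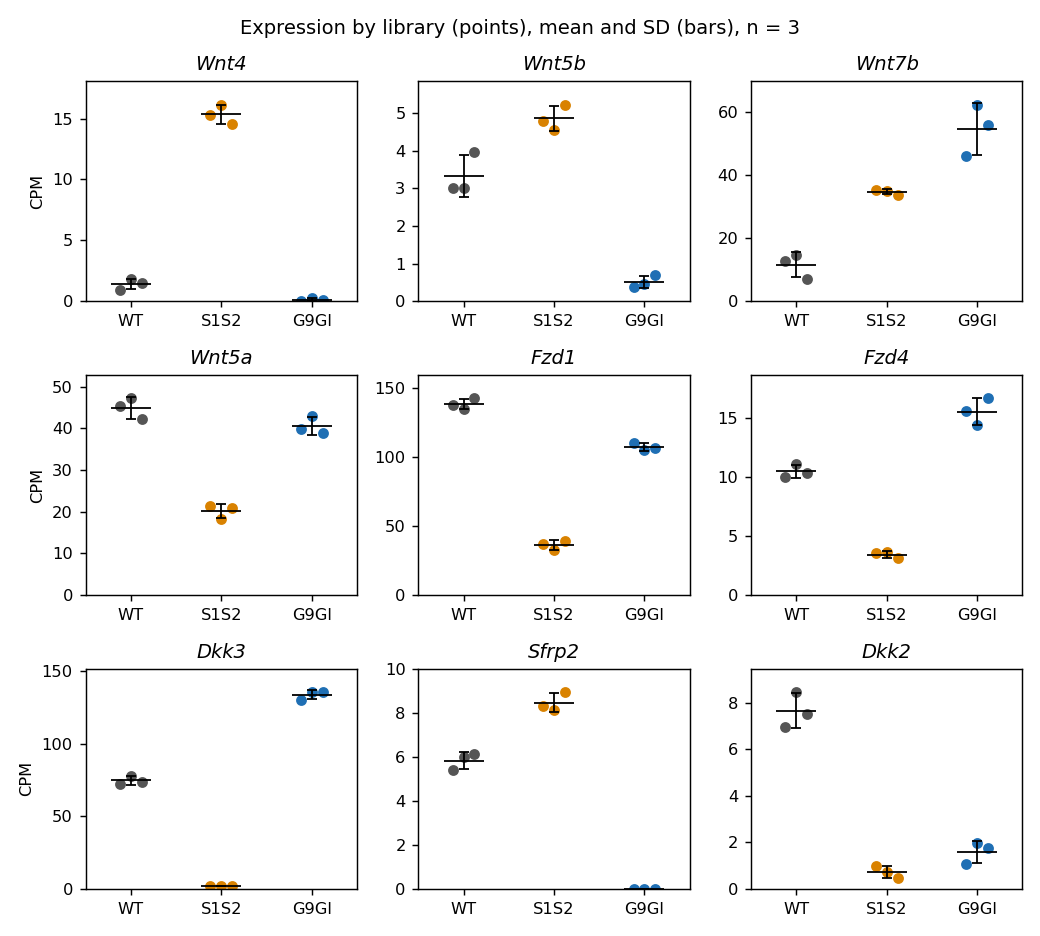
CPM of selected called members in each library (points) with the mean and SD of 3 libraries per genotype, on linear axes that start at 0. Dkk3 and Fzd4 are lowest in S1S2 and highest in G9Gl cells, and Wnt4 is highest in S1S2 cells.

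Of the Frizzled receptors, Fzd1 and Fzd4 fell in S1S2 cells and Fzd8 fell in G9Gl cells. Fzd1 was the most abundant Frizzled in WT cells, with 138, 135 and 142 CPM. It was at 37.1, 32.7 and 39.5 CPM in S1S2 and at 110, 105 and 106 CPM in G9Gl. The 3 genotypes did not overlap and S1S2 was far below both others. The log2 fold change of Fzd1 was -1.93 (SE 0.0831, adjusted p = 4.35e-14) in S1S2, -0.37 (SE 0.0312, adjusted p = 1.85e-05) in G9Gl and 1.56 (SE 0.0824, adjusted p = 3.22e-13) in G9Gl against S1S2. The middle value passed the p threshold and not the fold limit.

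Fzd4, the receptor of Norrin in vessels as well as of Wnt ligands, measured 10, 11 and 10.3 CPM in WT, 3.54, 3.61 and 3.10 CPM in S1S2 and 15.5, 14.4 and 16.6 CPM in G9Gl. S1S2 was lowest and G9Gl highest, with no overlap. Its log2 fold change was -1.61 (SE 0.0789, adjusted p = 1.91e-09) in S1S2 and 0.57 (SE 0.0735, adjusted p = 3.69e-05, under the fold limit) in G9Gl. Directly, G9Gl was 4.52-fold above S1S2 (log2 fold change 2.18, SE 0.09, adjusted p = 1.23e-11).

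Fzd8 was at 3.32, 2.88 and 3.29 CPM in WT and 3.59, 3.06 and 2.82 CPM in S1S2, but at 0.456, 0.754 and 0.751 CPM in G9Gl. WT and S1S2 overlapped and all G9Gl libraries were lower. Fzd8 changed by -2.26 on the log2 scale against WT (SE 0.224, adjusted p = 9.14e-08) and against S1S2 (SE 0.236, adjusted p = 1.04e-07).

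Fzd9 was barely expressed, at 0.492, 0.562 and 0.161 CPM in WT, 1.47, 0.802 and 1.18 CPM in S1S2 and 0.175, 0.287 and 0.392 CPM in G9Gl. S1S2 was above the other genotypes, which overlapped. It was called higher in S1S2 than in WT (1.47, SE 0.515, adjusted p = 4.30e-03) and lower in G9Gl than in S1S2 (-1.96, SE 0.356, adjusted p = 7.02e-04). The first call was lost without WT replicate 3 (adjusted p = 0.0199), S1S2 replicate 1 (0.0308) or S1S2 replicate 3 (0.0133).

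The other tested Frizzled receptors, Fzd2, Fzd3, Fzd5, Fzd6 and Fzd7, were called in no contrast. Fzd6 and Fzd2, the next most abundant, differed from WT by at most 0.51 in size on the log2 scale. Fzd6 measured 104 ± 1.53 CPM in WT, 86.3 ± 2.63 in S1S2 and 124 ± 8.96 in G9Gl. Fzd2 measured 98.9 ± 5.68, 69.5 ± 0.819 and 97.1 ± 2.48 CPM. Fzd7 lay at 36.9 ± 2.62, 42.6 ± 0.948 and 31.6 ± 1.20 CPM, and Fzd3 was lowest in G9Gl (8.48 ± 0.747 CPM against 13.7 ± 0.0444 in WT, log2 fold change -0.69). Fzd5 was at 12 ± 0.441, 14.6 ± 1.07 and 13 ± 0.317 CPM, and the gene Gm38058 on the opposite strand shares 1233 bases of its exons. Fzd10 had 0 counts in all libraries.

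Of the co-receptors, none was called in S1S2 against WT, although 3 of 5 passed the p threshold there, and Lrp5 was called between the mutants. Ryk and Lrp6 were the most abundant members of this role and neither was called, with Ryk at 309 ± 8.19 CPM in WT, 234 ± 1.05 in S1S2 and 296 ± 5.59 in G9Gl. Lrp6 was at 225 ± 5.99, 216 ± 3.71 and 231 ± 3.09 CPM. Lrp5, which with Lrp6 forms the co-receptor arm of the beta-catenin branch, measured 56.1, 56.8 and 52.5 CPM in WT, 107, 106 and 102 CPM in S1S2 and 46.4, 47.4 and 46.6 CPM in G9Gl. S1S2 was highest and the genotypes did not overlap. The log2 fold change was 0.93 (SE 0.0415, adjusted p = 3.63e-11) in S1S2 and -0.23 (SE 0.0366) in G9Gl, neither past the fold limit, and -1.17 (SE 0.0238, adjusted p = 9.89e-13) between the mutants. Lrp5 lies on chromosome 19, whose median log2 fold change was 0.34 in S1S2 against WT and -0.52 in G9Gl against S1S2. With that median removed the difference between the mutants was -0.65 and was no longer called. Ror2 was called in no contrast (26.4 ± 1.58, 31.9 ± 0.914 and 28.4 ± 1.43 CPM). Ror1 was near the floor in WT and S1S2, with means of 0.0868 and 0.185 CPM, and at 0.469 CPM in G9Gl, from 15, 10 and 16 counts. Its value in G9Gl against WT was 2.40 on the log2 scale (SE 0.388). That call, from a gene tested only because of its G9Gl libraries, was lost without WT replicate 1 (adjusted p = 0.0105). Without WT replicate 2 the WT counts, 1 and 2, are under the floor. The fitted value there, 3.20, is therefore no measure of the size of the change.

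The secreted inhibitors held the largest changes against WT. Only Dkk3, Dkk2 and Sfrp2 were tested, and the 6 others (Sfrp1, Sfrp4, Sfrp5, Frzb, Dkk1 and Wif1) did not pass the filter, with means of at most 0.267 CPM. Dkk3, a member of the Dickkopf family whose effect on Wnt signals varies with the cell, was at 72.5, 78.1 and 73.8 CPM in WT, 2.07, 2.22 and 2.26 CPM in S1S2 and 130, 136 and 136 CPM in G9Gl. The genotypes did not overlap, with S1S2 nearly without this RNA and G9Gl above WT. Dkk3 (chromosome 7, 112116017 to 112159057, minus strand, GRCm38) was 34.2-fold lower in S1S2, which is -5.09 on the log2 scale (SE 0.0497, adjusted p = 2.59e-18). In G9Gl the change of 0.84 (SE 0.0377, adjusted p = 5.78e-11) was under the fold limit. Between the mutants the difference was 61.2-fold (log2 fold change 5.93, SE 0.0422, adjusted p = 1.55e-19).

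Sfrp2, a secreted protein that binds Wnt ligands outside the cell, was at 5.38, 5.98 and 6.12 CPM in WT and 8.32, 8.13 and 8.94 CPM in S1S2, and had 0 counts in the 3 G9Gl libraries. With the floor of 3 counts per library, Sfrp2 was at least 56.2-fold lower in G9Gl than in WT cells (adjusted p = 7.71e-12) and at least 81.6-fold lower than in S1S2 cells (adjusted p = 1.40e-12). In S1S2 it was above WT in all libraries, by 0.54 on the log2 scale (SE 0.0696, adjusted p = 1.27e-03), which was not called. Of the 75-base words of its exons, 9.72% occur in other annotated genes on either strand. This share can include words from the 347 bases of exon that the antisense gene Gm26771 shares.

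Dkk2, an antagonist that binds Lrp5 and Lrp6, fell in both mutants. It measured 6.98, 8.46 and 7.54 CPM in WT, 0.965, 0.729 and 0.470 CPM in S1S2 and 1.05, 1.98 and 1.76 CPM in G9Gl. WT was far above all mutant libraries, and the mutants did not overlap but nearly touched. Dkk2 changed by -3.40 on the log2 scale (SE 0.284, adjusted p = 1.64e-09) in S1S2 and -2.26 (SE 0.277, adjusted p = 2.48e-08) in G9Gl. The difference between the mutants, 1.14 (SE 0.38, adjusted p = 2.60e-03), was no longer called when S1S2 replicate 2 or 3 or G9Gl replicate 2 or 3 was left out (adjusted p from 0.011 to 0.0153).

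**Figure D3:**
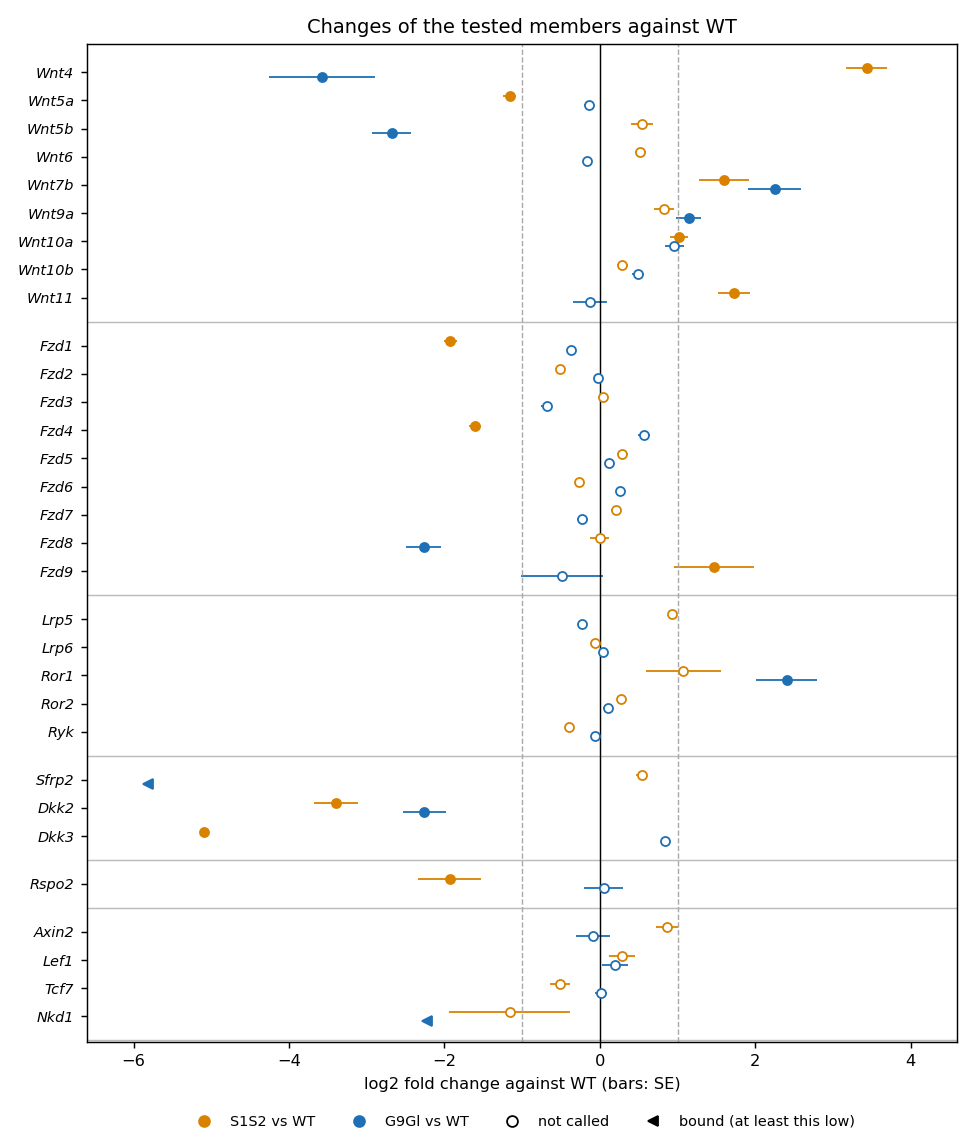
Log2 fold change of each tested member in S1S2 and in G9Gl against WT, with bars for the SE of replicate log2 CPM, open points for members not called and dashed lines at the fold limit. Dkk3 has the lowest S1S2 value (-5.09), and the arrows give Sfrp2 and Nkd1 in G9Gl at the bounds set by the floor of 3 counts (-5.81 and -2.22).

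R-spondins were near absent. Rspo2, an enhancer of Wnt signals, had a mean of 0.499 CPM in WT, 0.126 in S1S2 and 0.520 in G9Gl, with at most 21 counts in a library. It was called lower in S1S2 than in WT (-1.93, SE 0.401, adjusted p = 3.06e-03) and higher in G9Gl than in S1S2 (1.98, SE 0.36, adjusted p = 2.28e-03). The first call was lost in DESeq2 (adjusted p = 0.012) and without WT replicate 1, S1S2 replicate 2 or S1S2 replicate 3, and the second without S1S2 replicate 3 (adjusted p = 0.0139). Rspo3 had 0 counts in all libraries.

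The feedback and transcription genes, which are read out in many tissues as targets of the beta-catenin branch, were mostly not called. Axin2 was at 15.6, 17.9 and 12.8 CPM in WT, 29.2, 28.5 and 26.4 CPM in S1S2 and 11.3, 16.3 and 15.7 CPM in G9Gl. All S1S2 libraries were above the rest, and WT and G9Gl overlapped. On the log2 scale Axin2 differed by 0.86 (SE 0.147, adjusted p = 1.28e-05) in S1S2 against WT and by -0.96 (SE 0.175, adjusted p = 3.41e-06) in G9Gl against S1S2, both under the fold limit. In G9Gl against WT the value was -0.09 (adjusted p = 0.575). The value between the mutants passed the limit without G9Gl replicate 2 (-1.05) or G9Gl replicate 3 (-1.02). Lef1 and Tcf7, the transcription partners of beta-catenin, were called in no contrast. Lef1 stood at 4.63 ± 0.848, 5.61 ± 0.478 and 5.28 ± 0.483 CPM in WT, S1S2 and G9Gl, and Tcf7 at 20.2 ± 1.52, 14.2 ± 2.01 and 20.4 ± 1.01 CPM. Nkd1 was at 0.185, 0.397 and 0.870 CPM in WT, 0.368, 0.219 and 0.0470 CPM in S1S2 and 0, 0 and 0.0326 CPM in G9Gl. It was called at least 4.67-fold lower in G9Gl than in WT (adjusted p = 6.14e-04), a bound that was 2.80-fold, and still called, without WT replicate 3. Nkd1 reached the filter level in no G9Gl library and entered the test only through WT and S1S2 libraries. Its call is therefore given as a description. In a fit of only the WT and G9Gl libraries Nkd1 did not pass the filter, so there the call was lost, and 8 members were called in place of 9. Against S1S2 it was at least 2.04-fold lower and not called (adjusted p = 0.0171). The latter bound ranged from 1.28-fold to 2.83-fold when 1 S1S2 library was left out. Nkd2 did not pass the filter.

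To compare levels between genes, CPM was divided by exon length in kb and summed within a role. The ligands summed to 41.7 ± 3.73 CPM per kb in WT, 65.9 ± 1.33 in S1S2 and 68.0 ± 4.87 in G9Gl. In both mutants Wnt10a and Wnt10b together remained the most abundant ligands per kb, with Wnt10a at 32.7% and Wnt10b at 28.8% of the sum in S1S2 and at 30.3% and 32.2% in G9Gl, beside 25.3% and 37.3% in WT. Wnt7b made 5.56% of the ligand sum in WT, 10.8% in S1S2 and 16.4% in G9Gl, and Wnt5a made 13.8%, 3.91% and 7.66%. The Frizzled receptors summed to 94.7 ± 1.15, 59.7 ± 1.07 and 89.9 ± 1.62 CPM per kb. Fzd1 made 34.8% of the Frizzled sum in WT, 14.5% in S1S2 and 28.4% in G9Gl, and Fzd2 led in the mutants with 31.8% in S1S2 and 29.5% in G9Gl. In G9Gl Fzd2, Fzd6 and Fzd1 differed by no more than their spread (29.5% ± 1.27, 28.7% ± 1.54 and 28.4% ± 0.233). The secreted inhibitors summed to 27.2 ± 1.19 CPM per kb in WT, 4.93 ± 0.219 in S1S2 and 40.4 ± 1.01 in G9Gl. Dkk3 made 82.0% of this sum in WT and 98.6% in G9Gl but 13.2% in S1S2 cells, where Sfrp2 made 79.7%. These sums describe RNA and were not tested.

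**Figure D4:**
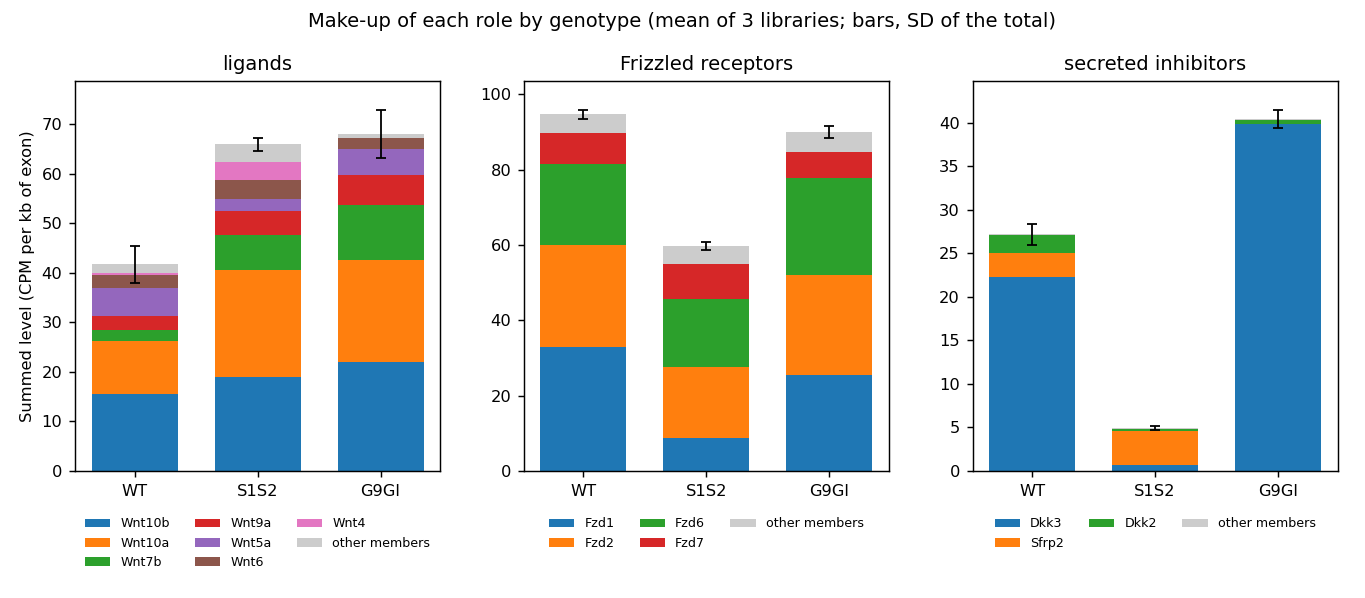
Summed expression per exon length (CPM per kb, mean with SD of 3 libraries) of ligands, Frizzled receptors and secreted inhibitors in each genotype, stacked by gene. The inhibitor bar is lowest in S1S2 (4.93) and highest in G9Gl (40.4), where Dkk3 makes nearly all of it.

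Other genes of the pathway were taken from a list of 76, of which 57 were tested. In S1S2 against WT cells 12 of the 57 were called (21.1%, 6 higher, 6 lower). In G9Gl against WT 10 were called (17.5%, 4 higher, 6 lower). Between the mutants it was 15 (26.3%, 7 higher, 8 lower in G9Gl). The shares of all genes are those given above. The 16 genes of the signalling core, with Dvl1, Axin1, Apc, Gsk3b and Ctnnb1 (beta-catenin), were all tested. None of them was called in S1S2 and only Prickle1, which acts in planar cell polarity, in G9Gl (2.07). Ctnnb1 had log2 fold changes of 0.49 in S1S2 and 0.02 in G9Gl. Of the 14 tested genes commonly used as Wnt targets, 5 rose and 3 fell in S1S2 (57.1% called, beside 9% of all genes). In G9Gl 2 rose (14.3% called, beside 10.2% of all genes).

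The ligand Wnt7a was found in S1S2 cells alone, with 1.84, 1.68 and 1.41 CPM, and had 0 counts in the 6 libraries of WT and G9Gl. It was at least 17.1-fold higher in S1S2 than in WT cells. Wnt7a entered the test only through its S1S2 libraries, and Celsr3 only through those of G9Gl, so their calls are given as a description. Of the Celsr cadherins, which act in planar cell polarity, Celsr1 and Celsr2 fell in G9Gl (-5.18 and -3.18) and Celsr3 was at least 15.8-fold higher there than in WT. Pygo1, a cofactor of beta-catenin, was at 10.2 ± 1.00 CPM in WT and 1.01 ± 0.187 CPM in G9Gl cells, a fall of 3.33 on the log2 scale (-3.33, SE 0.161, adjusted p = 2.76e-12). Notum, which removes the lipid of Wnt proteins, fell in G9Gl cells as well (-1.93). Tle4, a co-repressor of TCF/LEF factors, fell in S1S2 (-1.38) and was at 0.86 in G9Gl. Among the commonly used targets, Prrx1 fell in S1S2 (-2.44), and Ccn2 rose in both mutants (1.67 and 2.35).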

How the data were processed

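RNA was sequenced from 3 cultures each of WT, S1S2 and G9Gl MEFs. Per the labels, libraries were stranded total RNA. Per the study's methods, which were taken to describe these libraries too, the authors trimmed paired-end reads (cutadapt), aligned these with STAR (2.5.2b in the submitters' processing notes) to GRCm38 and counted genes with TEtranscripts, which shares reads that align to several places. Annotation release and strand setting are not given in the sources used here, so antisense neighbours may not be separated. The deposited values are raw counts per Ensembl gene, not normalized. Of 47937 genes, 47224 were matched to GENCODE M21 for symbols, positions and exon length, and 713 were not.

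In R 4.3.3, edgeR 4.0.16 (TMM, filterByExpr, glmQLFit, glmQLFTest) was fitted to all 9 libraries with a coefficient per genotype, and all 3 contrasts were tested over 15540 genes with Benjamini-Hochberg adjustment. All adjusted p-values are from this test unless DESeq2 is named. The biological coefficient of variation was 5.36%. Expression is CPM scaled by TMM factors. The SE comes from the replicate spread of log2 CPM with a prior count of 2. A gene with at most 3 counts in each library of a genotype is given as a bound against that floor. Floors cover counting error only, and without molecular identifiers a read is not an independent molecule. The fit was tested on simulated data.

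The members and lists were chosen with earlier results of these data known. All 43 members are accounted for by role, with every library's value for called members of at least 1 CPM on average in some genotype. Uncalled members are named where they are among the 5 most abundant of their role. Of the other pathway genes, at most 10 called genes with the largest change are named, and Ctnnb1, core genes given as examples and markers are named outside this rule. Alternatives were DESeq2 1.42.0, its size factors, no TMM factor, other filters and thresholds, glmTreat, fits of only the libraries compared, a replicate block, chromosome medians removed and each library left out.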

Additional observations from a re-analysis of the deposited data

Results flagged for a closer look

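For 6 members the change against WT passed the p threshold of 0.01 in both mutants with opposite signs, and the mutants were called apart in the direct contrast (edgeR, adjusted over all genes). The share of all tested genes that meet this rule was not computed, so this count has no background beside it. The log2 fold change of G9Gl against S1S2 cells was -7.01 for Wnt4, -3.22 for Wnt5b, -1.17 for Lrp5 and -10.88 for Sfrp2, and it was 2.18 for Fzd4 and 5.93 for Dkk3. Wnt5b met this only narrowly, since its adjusted p in S1S2 against WT was 9.75e-03, ran from 2.59e-03 to 0.051 over the alternatives other than glmTreat, and was over 0.01 in DESeq2, without the TMM factor and in 5 of the 6 fits that left out a WT or S1S2 library. Sfrp2 in S1S2 against WT was over that threshold without WT replicate 1 (adjusted p = 0.0102). For Wnt4, both changes against WT were called. In the other 5 at least 1 of them stayed under the fold limit. The Sfrp2 value is a fitted number against 0 counts, and its bound is at least 81.6-fold lower. With the chromosome medians removed, Lrp5 was no longer called (-0.65). Groups of 3 libraries were too small for a test of single outlying libraries.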

How the results depend on the processing

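Counts of called members were 11 in S1S2 and 9 in G9Gl against WT, and 13 between the mutants. With an adjusted p of at most 0.05 and no fold limit they were 25, 18 and 28 of the 31 tested. Those of the 57 other pathway genes tested, 12, 10 and 15 before, were 41, 37 and 37. The shares of all tested genes were 48.9%, 45.9% and 53.3%. Under glmTreat against a fold change of 2 the counts of members were 7, 7 and 9, with Wnt5a, Wnt10a, Fzd9 and Rspo2 lost in S1S2, Wnt9a and Ror1 in G9Gl, and Wnt5a, Fzd9, Dkk2 and Rspo2 between the mutants, and with at least 10 counts in every library the count in G9Gl against WT was 5, as members near 0 in G9Gl or WT were not tested there. Leaving out 1 library gave 9 to 11, 9 to 10 and 11 to 13 members, and 10 to 13, 10 to 11 and 14 to 15 other genes. The replicate numbers did not pair the libraries, since correlations of same-numbered deviations ran from -0.0686 to 0.124. With the number as a replicate block the counts stayed 11, 9 and 13 and no call of a member changed.

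Among these alternatives, reversals were seen only for members in contrasts where they were not called. With chromosome medians removed the value was 0.016 for Fzd8 in S1S2 against WT. In G9Gl against WT it was 0.098 for Wnt6, 0.038 for Fzd7, -0.025 for Tcf7 and -0.010 for Rspo2, and in G9Gl against S1S2 it was 0.082 for Wnt10a and 0.025 for Lef1. Without the TMM factor Tcf7 in G9Gl was -0.012. Leaving out 1 library moved Fzd8 in S1S2 between -0.10 and 0.0645. In G9Gl it moved Wnt11 between -0.25 and 0.0511, Fzd2 between -0.0717 and 0.0028, Axin2 between -0.21 and 0.0565, Tcf7 between -0.0311 and 0.0754 and Rspo2 between -0.14 and 0.28. The cause was not tested. Members under 1 CPM (Ror1, Rspo2, Nkd1) rest on at most 27 counts in a library, and depth limits them most in S1S2.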
